A study of Mus musculus with 2 samples.

Results

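The 2 activators Dppa2 and Dppa4 and the 4 repressors Chaf1a, Chaf1b, Kdm1a and Rybp of the 2-cell-like state were followed through the open chromatin of mouse embryonic stem cells (ESCs) with and without Uhrf1. These 6 genes were chosen by name out of 22367 protein-coding genes of the GENCODE vM1 annotation, and the peaks described are those lying in each gene or in the 20 kb on either side. The windows cover 396 kb when overlapping stretches are counted once, and hold 36 of the 71914 peaks listed for WT cells and 30 of the 61640 peaks listed for Uhrf1 KO cells. The 2 samples were E14 mouse ESCs in the undifferentiated state (WT) and Uhrf1 KO E14 ESCs, both obtained from another laboratory and grown in serum with leukemia inhibitory factor on plates coated with gelatin or mouse embryonic fibroblasts. Accessible DNA was mapped by ATAC-seq, an assay that uses the Tn5 transposase to cut and tag stretches free of nucleosomes, from 50000 lysed cells per sample. 1 library was made for each genotype. A difference between the lists therefore compares 2 libraries without a replicate check, no test between the genotypes was made, and effects of the genotype and of the library cannot be told apart. How the KO line was made and how many clones it represents are not given in the labels.

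A small part of ESCs in culture passes through a state that resembles the 2-cell mouse embryo, in which retrotransposons of the MERVL family and genes such as the Zscan4 cluster are transcribed. Dppa2 and Dppa4 are small DNA-binding proteins with a SAP domain that are expressed in pluripotent cells, form a pair with each other and activate Dux, a transcription factor that in turn activates 2-cell genes. The other 4 genes encode proteins whose loss raises the share of 2-cell-like cells. Chaf1a and Chaf1b are the large and middle subunits of CAF-1, the chaperone that deposits histones on newly replicated DNA. Kdm1a (Lsd1) removes methyl groups from lysine 4 of histone H3, and Rybp is a subunit of variant Polycomb repressive complexes 1. Uhrf1, the gene deleted in the KO cells, recruits Dnmt1 to hemimethylated DNA and thereby maintains DNA methylation.

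The deposited data are positions of peaks with a name and a score that is 1 throughout, so the number of reads behind a peak is unknown. All peaks were 101 bp wide except 1 KO peak, and a broad open region appears as several neighbouring peaks. The KO list was shorter than the WT list, at 0.857 of its length, and on the 4 chromosomes that carry the 6 genes the ratio lay between 0.842 and 0.916. A peak was called shared when a peak of the other list lay at a gap of at most 100 bp, and WT-only or KO-only otherwise. By this rule 32.1% of all WT peaks and 24.6% of all KO peaks lacked a partner. Uhrf1 itself had a peak at the same position of its promoter in both lists, 27 bp upstream of the transcription start site (TSS), so the lists hold no check of the deletion. Promoter peaks at Pou5f1, Nanog and Sox2, which mark pluripotent cells, were likewise listed in both libraries, within 1 kb of an annotated TSS. At Pou5f1 the KO peak nearest to the 5′ end of the gene record lay over 1 kb from it. The KO call at this gene therefore rests on another annotated TSS, whereas WT had a peak within 1 kb of that end.

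All 6 regulators had a WT peak at the promoter, taken as a peak centre within 1 kb of an annotated TSS of the gene, and 4 of them had one in the KO list. Chaf1a, Chaf1b, Rybp and Dppa2 had promoter peaks in both lists. Dppa4 and Kdm1a had a promoter peak in the WT list only. Among all protein-coding genes, 61.6% had a promoter peak in WT, 56.4% in KO and 54.9% in both. A promoter peak in WT only was found at 6.69% of all genes, against 2 of the 6 regulators (33.3%), and one in KO only at 1.52% of all genes, against none of the 6. Only genes with a WT promoter peak can fall in the WT-only class, and of those 13780 genes 1496 did. Both the activator and the repressor class thus held 1 gene with a promoter peak listed in WT alone. In the windows, 3 genes had fewer KO than WT peaks (48.7% of all genes did) and 3 had more (21.0% of all genes). Dppa2 and Dppa4 are among the 3 with more, and their overlapping windows hold the same 5 KO peaks, so they are not separate cases.

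**Figure D1:**
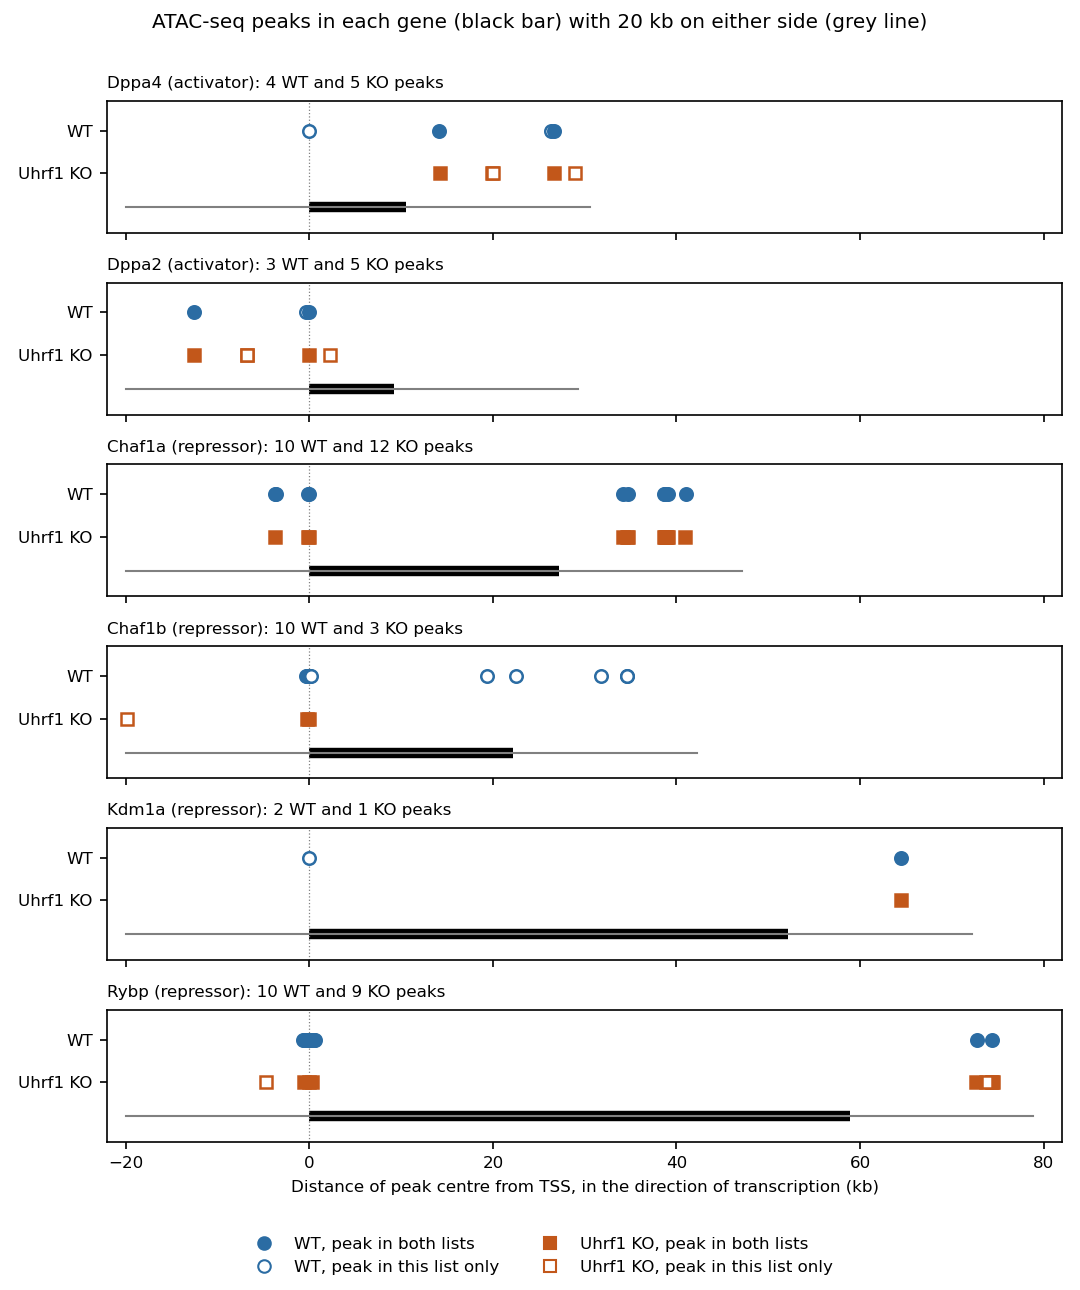
Peaks of both lists in the 6 regulators, 1 panel per gene. The horizontal axis is the distance of the peak centre from the TSS in kb in the direction of transcription, the black bar is the gene and the grey line the 20 kb on either side. Filled symbols are peaks with a partner in the other list and open symbols peaks without one. At Dppa4 and Kdm1a the symbol at the TSS is open and appears in the WT row alone.

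The promoter peaks of Dppa2 and the peaks between Dppa4 and Dppa2 are shown because both shared and lone peaks lie along this pair of activators. Positions are in mm9, 5′ to 3′ on the plus strand, on which both genes are transcribed. Capitals mark motif matches, and a line without capitals holds none of the 15 short motifs searched.
shared peak between the genes (chr16:48297966-48298066): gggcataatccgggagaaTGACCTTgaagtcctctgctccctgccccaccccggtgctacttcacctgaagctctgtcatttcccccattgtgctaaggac
pair of overlapping KO-only peaks between the genes (chr16:48303729-48303893): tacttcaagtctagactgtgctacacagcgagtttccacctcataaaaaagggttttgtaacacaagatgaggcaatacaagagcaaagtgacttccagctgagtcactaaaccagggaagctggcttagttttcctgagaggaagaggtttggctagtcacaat
Dppa2 promoter, WT-only peak (chr16:48310159-48310259): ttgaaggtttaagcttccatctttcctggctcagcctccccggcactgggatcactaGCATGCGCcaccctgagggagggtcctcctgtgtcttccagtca
Dppa2 promoter, shared peak in its WT position (chr16:48310463-48310563): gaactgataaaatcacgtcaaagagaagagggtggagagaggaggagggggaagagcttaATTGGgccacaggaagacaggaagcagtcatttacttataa

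Dppa4 (ENSMUSG00000058550.7, chr16:48283848-48294405, plus strand) and Dppa2 (ENSMUSG00000072419.4, chr16:48310590-48319836, plus strand) lie next to each other, with 26742 bp between their TSSs and 16184 bp between the end of Dppa4 and the start of Dppa2. Their windows therefore overlap, and 3 WT and 5 KO peaks belong to both. Dppa4 had 4 WT peaks (1.09 to 10.2 as the 95% exact Poisson interval, which covers counting error only) and 5 KO peaks (1.62 to 11.7). Dppa2 had 3 WT peaks (0.619 to 8.77) and 5 KO peaks (1.62 to 11.7). The intervals of the lists overlap for both genes. The median over all protein-coding genes was 4 WT and 3 KO peaks in such a window, so both activators lay near the middle of the genes in WT. In KO, 67.2% of all genes had fewer peaks than either of them.

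At the Dppa4 promoter the single WT peak was centred 12 bp upstream of the TSS and covered it. The nearest KO peak lay 14197 bp away, beyond the 3′ end of the gene, and no peak of either list lay inside the Dppa4 gene. Peak names carry a number, counted separately for each chromosome, and the sources used here do not say what it stands for. Over the whole lists, peaks with low numbers were shared more often, and the number is given below as a percentage of the highest on the chromosome. A decile here is an equal step of this percentage, so deciles differ in the number of peaks they hold. The Dppa4 promoter peak stood at 84.7%, in a decile where 59.8% of the WT peaks within 1 kb of a TSS had no KO partner. A lone peak with such a name number was therefore common in the WT list.

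The Dppa2 promoter had WT peaks 381 and 77 bp upstream of the TSS and 1 KO peak 88 bp upstream. The peaks at 77 and 88 bp were 11 bp apart and form the shared promoter peak of Dppa2. Its name number stood at 84.8% in the WT list, directly after that of the Dppa4 promoter peak (numbers 1955 and 1954), and at 49.9% in the KO list. The WT peak 381 bp upstream (name number at 51.4%) had its nearest KO peak 293 bp away. It is the peak that holds GCATGCGC, the core of the site of NRF1, a match found in 0.902% of all WT peaks, and the shared peak holds a CCAAT box (ATTGG on the printed strand), as 14.7% of WT and 17.7% of KO peaks do.

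Between the genes, 1 open site was shared and 1 was listed in KO alone. The shared site lay 12574 bp upstream of the Dppa2 TSS in WT and 12557 bp in KO, which is 3611 bp past the end of Dppa4 in WT, and holds the Esrrb core site (TGACCTT on the printed strand, found in 1.21% of WT and 1.38% of KO peaks). The KO-only site consisted of 2 overlapping peaks, 6811 and 6747 bp upstream of the Dppa2 TSS, with the nearest WT peak 5763 bp from the first. Their name numbers were low, at 31.2% and 27.4%, and of the KO peaks over 1 kb from every TSS in the same deciles 22.4% and 13.1% lacked a WT partner. Both name numbers of this pair were lower than that of any other KO-only peak of the 6 genes. A further KO-only peak was centred 2230 bp downstream of the TSS in an intron of Dppa2, with its name number at 74.6%, a decile in which 53.5% of such KO peaks lacked a partner. The nearest peaks outside the window of Dppa4 lay 79609 bp (WT) and 61605 bp (KO) from the nearer end of that gene. For the window of Dppa2 these distances were 26704 bp (WT) and 36174 bp (KO), and the WT peak is the Dppa4 promoter peak.

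**Figure D2:**
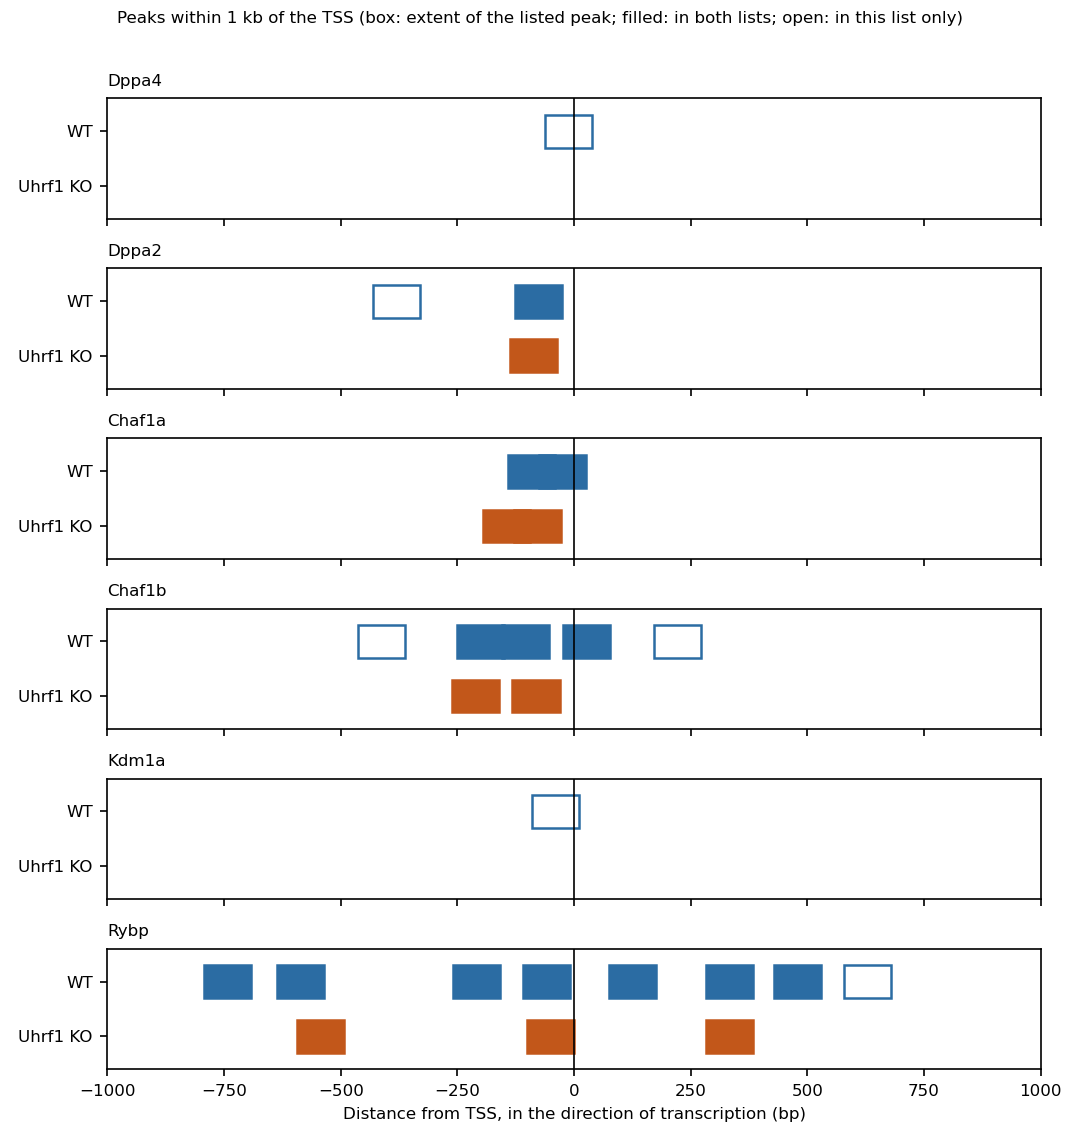
Peaks within 1 kb of the TSS of each regulator. The horizontal axis is the distance from the TSS in bp in the direction of transcription, and each box spans a listed peak, filled when the other list has a partner and open when it has none. The KO row is empty at Dppa4 and Kdm1a, while Chaf1b and Rybp show 5 and 8 WT boxes against 2 and 3 KO boxes.

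The promoters of the 4 repressor genes are printed for comparison with the activators, since both differ in base composition. The lines give mm9 positions and read 5′ to 3′ in the direction of the gene, and Kdm1a and Rybp lie on the minus strand. In the Kdm1a line capitals mark the 90 bases that lie in the WT-only peak, and in the other lines they mark motif matches.
Chaf1a (chr17:56179631-56179826): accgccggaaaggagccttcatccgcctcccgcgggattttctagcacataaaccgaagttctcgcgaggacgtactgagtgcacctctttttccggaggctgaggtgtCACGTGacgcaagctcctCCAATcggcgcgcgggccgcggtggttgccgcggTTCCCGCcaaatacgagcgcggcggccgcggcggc
Chaf1b (chr16:93883885-93884145): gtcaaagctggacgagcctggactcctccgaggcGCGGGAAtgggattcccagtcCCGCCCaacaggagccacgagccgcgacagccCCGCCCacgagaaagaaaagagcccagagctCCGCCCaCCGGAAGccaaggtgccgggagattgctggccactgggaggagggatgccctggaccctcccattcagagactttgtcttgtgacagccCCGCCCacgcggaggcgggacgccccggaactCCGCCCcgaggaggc
Kdm1a (chr4:136158639-136158838): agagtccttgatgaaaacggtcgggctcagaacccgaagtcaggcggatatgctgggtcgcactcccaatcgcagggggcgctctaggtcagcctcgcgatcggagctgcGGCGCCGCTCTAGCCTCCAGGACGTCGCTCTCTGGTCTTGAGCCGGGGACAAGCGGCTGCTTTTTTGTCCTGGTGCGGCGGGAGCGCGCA
Rybp, shared peak in its WT position (chr6:100237444-100237544): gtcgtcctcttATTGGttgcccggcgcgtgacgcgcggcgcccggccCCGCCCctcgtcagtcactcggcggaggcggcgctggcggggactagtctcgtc

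Chaf1a (ENSMUSG00000002835.7, chr17:56179827-56206973, plus strand) was the regulator whose peaks were all shared. In its window 10 WT peaks (4.80 to 18.4) and 12 KO peaks (6.20 to 21.0) were listed, and each of them had a partner. At the promoter the WT peaks were centred 91 and 25 bp upstream of the TSS and the KO peaks 146 and 78 bp upstream, with name numbers between 13.0% and 18.3%. No peak lay in the rest of the gene. Most of the other peaks belong to neighbouring genes: 7 WT and 9 KO peaks of the window lay within 1 kb of the TSS of Sh3gl1, Ubxn6 or Hdgfrp2. The remaining peak of each list was in an intron of Hdgfrp2. The KO excess of 2 peaks lay at the Ubxn6 and Hdgfrp2 promoters, where KO had 3 and 5 peaks and WT had 2 and 3, while WT had 2 peaks and KO 1 at Sh3gl1. An excess of at least 2 KO peaks was found at 8.64% of all genes.

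Chaf1b (ENSMUSG00000022945.5, chr16:93884146-93906360, plus strand) had the largest difference of the 6 genes, with 10 WT peaks (4.80 to 18.4) and 3 KO peaks (0.619 to 8.77). Of all protein-coding genes 2.00% had at least as large a deficit in KO, of 7 peaks or more, and the 2 Poisson intervals overlap. Such a deficit needs at least 7 WT peaks, the upper quartile of all genes, so most genes could not show it. Chaf1b was among the genes that could, and 89.0% of all genes had fewer WT peaks. The promoter was open in both lists. In WT its peaks were centred 414, 201 and 104 bp upstream and 27 and 221 bp downstream of the TSS, and in KO 211 and 82 bp upstream. The WT peaks at the outer ends, 414 bp upstream and 221 bp downstream, had no KO partner, so that the promoter peaks spanned 635 bp in WT and 129 bp in KO.

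The other 5 WT peaks of Chaf1b had no KO partner either. They lay 19331 bp downstream of the TSS in an intron and at 22547, 31732, 34576 and 34642 bp, past the 3′ end of the gene and towards Cldn14, and no KO peak lay downstream of the promoter in the window. Their name numbers were between 80.1% and 99.4%, in deciles of the WT list where 62.6% and 65.6% of the peaks over 1 kb from every TSS lacked a KO partner. Neighbouring WT peaks here again had consecutive numbers, such as 2022 and 2023 for the last pair. The only lone KO peak of the window lay 19838 bp upstream in an intron of Morc3, with its name number at 77.6%.

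Kdm1a (ENSMUSG00000036940.9, chr4:136106455-136158638, minus strand) had the fewest peaks, 2 in WT (0.242 to 7.22) and 1 in KO (0.0253 to 5.57), although its window of 92184 bp was the longest after that of Rybp. The promoter peak was centred 40 bp upstream of the TSS and was listed in WT alone, with the nearest KO peak 64483 bp away. Its name number stood at 42.3%, where 28.7% of the WT peaks within 1 kb of a TSS had no KO partner. It was thus the WT-only peak with the lowest name number among the 11 of the 6 genes. The other peak lay 64443 bp from the TSS, past the 3′ end of Kdm1a in an intron of Luzp1, and its position was identical in the lists. No peak of either list lay in the 52184 bp of the gene itself other than the one that overlaps its start.

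Rybp (ENSMUSG00000072872.2, chr6:100178560-100237435, minus strand) had the broadest open promoter. Its window held 10 WT peaks (4.80 to 18.4) and 9 KO peaks (4.12 to 17.1), but the places differed. At the promoter, 8 WT peaks reached from 743 bp upstream to 628 bp downstream of the TSS, a span of 1371 bp, and 3 KO peaks from 544 bp upstream to 332 bp downstream, a span of 876 bp. The peak 332 bp downstream, in the first part of the gene, had the same position in both lists, and the WT peak 628 bp downstream was the only promoter peak without a partner. Past the 3′ end of Rybp the order was the other way round, with WT peaks 72689 and 74361 bp from the TSS and KO peaks at 72650, 73711, 74306, 74367 and 74435 bp. The KO peak at 73711 bp had no WT partner, and 3 KO peaks shared the WT peak at 74361 bp.

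The second lone KO peak of Rybp lay 4762 bp upstream of the TSS, with its name number at 58.1%. It is printed because its central 31 bp, rich in TG repeats, occur 11 times in mm9, and a read from such a stretch is placed at only 1 of its copies when 1 alignment is reported per read.
Rybp upstream, KO-only peak (chr6:100242147-100242247, minus strand): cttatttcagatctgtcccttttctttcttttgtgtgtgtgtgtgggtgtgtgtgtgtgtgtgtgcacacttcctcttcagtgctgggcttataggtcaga
The same 31 bp were unique in the genome for 35 of the 36 WT peaks and 29 of the 30 KO peaks of the 6 genes, and the remaining WT peak, 125 bp downstream of the Rybp TSS, had 2 copies.

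**Figure D3:**
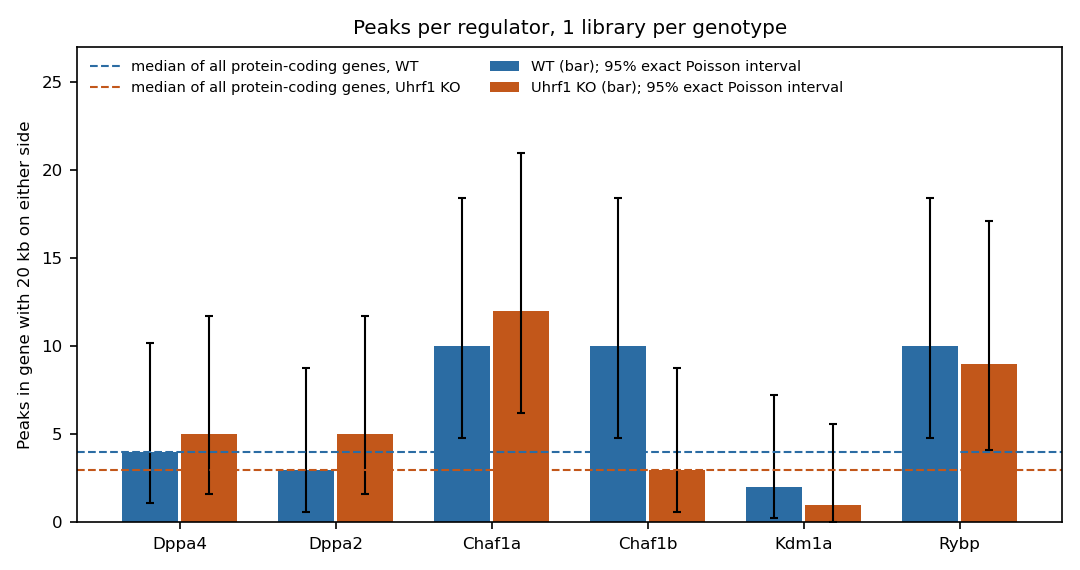
Number of peaks in the window of each regulator. Bars are the WT and KO libraries, 1 of each, error bars are 95% exact Poisson intervals that cover counting error only, and dashed lines are the medians of all protein-coding genes, 4 in WT and 3 in KO. Chaf1b shows 10 WT against 3 KO peaks, and the error bars of the lists overlap at every gene.

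Counted once each, the windows held 36 WT peaks (25.2 to 49.8) and 30 KO peaks (20.2 to 42.8), a KO to WT ratio of 0.833 beside 0.857 for the whole lists. A KO partner was missing for 11 WT peaks (30.6%, with 16.3% to 48.1% as the 95% exact binomial interval) and a WT partner for 6 KO peaks (7.71% to 38.6%). Both intervals include the shares of the whole lists, 32.1% and 24.6%. They treat peaks as independent, although neighbouring peaks can belong to 1 open region, and may therefore be too narrow. With neighbouring peaks merged, the windows held 24 WT and 20 KO regions. At the promoters of the 6 genes there were 19 WT peaks, 6 of them without a partner, and 8 KO peaks, all of them shared. Over the whole lists, 24.4% of the WT and 7.53% of the KO peaks within 1 kb of a TSS lacked a partner, so sharing at these promoters lay near that of all promoters. Outside the promoters and gene bodies of the 6 genes there were 16 WT peaks, 4 without a partner, and 21 KO peaks, 5 without a partner. Of these, 7 WT and 9 KO peaks lay within 1 kb of the TSS of a neighbouring gene, all in the Chaf1a window. Of all peaks over 1 kb from every TSS, 38.7% in WT and 36.7% in KO lacked a partner. Each list had 1 peak in a gene body away from a TSS, the Chaf1b intron in WT and the Dppa2 intron in KO, and neither had a partner.

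Most lone peaks of the 6 genes had high name numbers. The 11 WT-only peaks had a median of 80.1%, with 10 above 50%, and the 25 shared WT peaks a median of 18.3%. The 6 KO-only peaks had a median of 66.3%, with 4 above 50%, and the 24 shared KO peaks a median of 15.8%. This was the pattern of the lists as a whole, in which 81.2% of the WT-only and 81.1% of the KO-only peaks stood above 50%. The exceptions were the Kdm1a promoter peak in WT and the pair of peaks between Dppa4 and Dppa2 in KO. In a setting chosen after seeing the data, the WT list was shortened by name number to the length of the KO list on each chromosome. All 6 regulators still had their WT promoter peak, Chaf1b had 9 WT peaks and Rybp 9, and the other counts did not move, while 5.59% of all genes had a promoter peak in WT only and 2.05% in KO only.

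**Figure D4:**
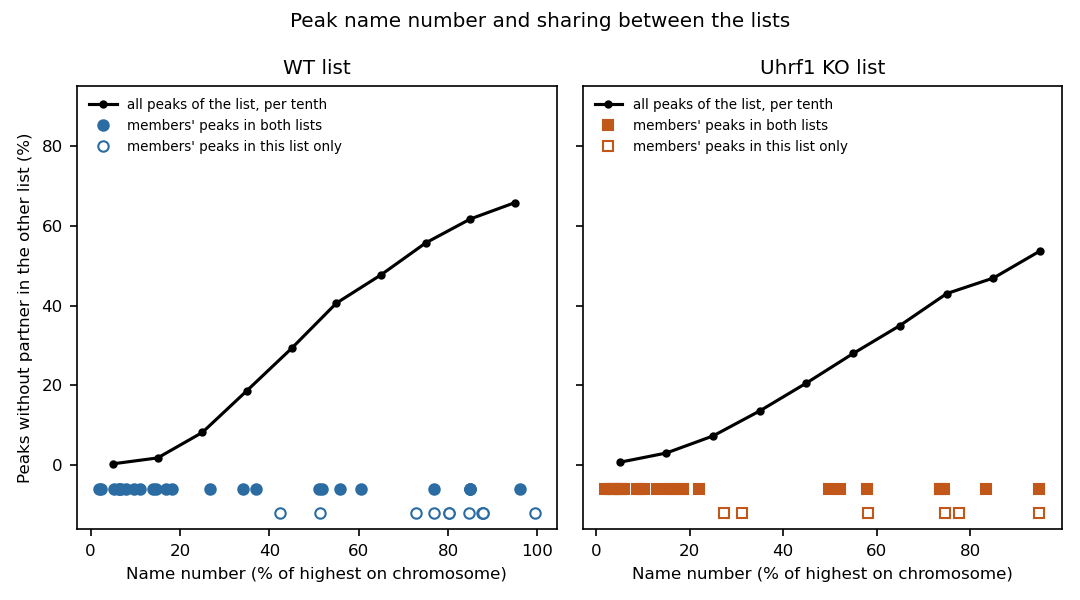
Name number and sharing, WT list on the left and KO list on the right. The horizontal axis is the number in the peak name as a percentage of the highest on its chromosome, and the black line is the share in percent of all peaks of the list without a partner in each decile. The symbols below 0 mark only the name numbers of the regulators' peaks, filled when shared and open when lone, and have no value on the vertical axis. Of the 11 open WT symbols 10 lie above 50%, and 2 of the 6 open KO symbols lie below it.

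The promoters of the activators and the repressors differed in base composition. Over the 300 bp from 250 bp upstream to 50 bp downstream of the TSS, the GC content was 39.7% at Dppa2 and 41.3% at Dppa4, with 5 and 4 CpGs. At the repressors it was 61.7% at Chaf1a, 70.3% at Chaf1b, 61.3% at Kdm1a and 83.3% at Rybp, with 32, 30, 29 and 58 CpGs. Only 9.73% of all genes had a promoter of lower GC content than Dppa2, and 99.7% had one of lower GC content than Rybp. Of the 14477 genes below 60% GC, 44.2% had a WT and 40.2% a KO promoter peak and 5.91% one in WT only. Among the 7890 genes at or above 60%, these shares were 93.6%, 86.3% and 8.12%. Taken over the genes with a WT promoter peak alone, the order turned. Of these, 13.4% below 60% GC and 8.68% at or above it had one in WT only. Dppa2 with peaks in both lists and Dppa4 with one in WT only thus belong to the GC-poor class, and Kdm1a, with a promoter peak in WT only, to the GC-rich class in which most genes had one in both. The GC content of the central 200 bp of the peaks ranged from 41.0% to 87.5% in WT (median 62.8%, against 59.5% for the whole list) and from 41.0% to 80.0% in KO (median 59.5%, against 56.5%).

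The motifs were searched as exact letters on both strands: the octamer ATGCAAAT, the Sox core CATTGTT, the Klf core CCACACCC, the Esrrb core AAGGTCA, the GC box GGGCGG, the CCAAT box itself, the ETS core CCGGAAG, the E2F core TTCCCGC with a second form of it, GCGCGAA, the NRF1 core GCATGCGC, the YY1 core AAGATGGC, the E box CACGTG, the CRE TGACGTCA, and a CTCF core in the forms AGGGGGC or else AGGTGGC. In the same 300 bp windows, the GC box was found 5 times at Chaf1b, 5 times at Rybp and once at Chaf1a, and in 43.4% of all promoters. The CCAAT box was found once each at Dppa2, Chaf1a, Kdm1a and Rybp, and in 37.9% of all promoters. TTCCCGC, an E2F core site, occurred once at Chaf1a and 2 times at Chaf1b, the subunits of CAF-1, and in 5.58% of all promoters. Chaf1a also held the E box (7.79% of all promoters), Chaf1b 1 ETS core (10.8%) and Kdm1a 1 CTCF core AGGGGGC (12.1%). Both this CTCF core and the CCAAT box of Kdm1a lie outside its peak. These matches describe the letters of the windows and not binding.

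A wider list of genes tied to the 2-cell-like state was set beside the 6 regulators, by their roles. Of 52 names, 46 were found in the annotation and 6 were not (Duxf3, Nelfa, Tcstv1, Tcstv3, Usp17lc and Usp17le). Of the 46 genes, 37 (80.4%) had a promoter peak in both lists, 3 (6.52%) in WT only, 1 (2.17%) in KO only and 5 (10.9%) in neither. Fewer KO than WT peaks were in the window of 25 genes (54.3%) and more in that of 11 (23.9%), with medians of 6 WT and 5 KO peaks. The shares in WT only and KO only lay near those of all genes, and the share in both was above the 54.9% of all genes.

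By role, all 6 genes grouped with CAF-1 (such as Asf1a, Asf1b and Pcna) had promoter peaks in both lists, against 54.9% of all genes. All 6 partners of Kdm1a (such as Rcor1 and Hdac1) also had them in both. Kdm1a itself had one in WT only. For its partner Phf21a both calls rest on another annotated TSS. The peaks nearest to the 5′ end of the Phf21a gene record lay 33180 bp (WT) and 33186 bp (KO) from it. Of 11 subunits of PRC1.6 and other Rybp partners, 10 had promoter peaks in both. The exception was E2f6, a DNA-binding subunit of PRC1.6. Its window held 3 WT peaks, 1 of them centred 109 bp upstream of the TSS, and no KO peak. The nearest KO peak lay 39889 bp from the TSS. A deficit in KO of at least 3 peaks was found at 18.7% of all genes. Of 16 other repressors, 13 had promoter peaks in both lists. Kat5, the acetyltransferase of the Tip60 complex, and Lin28a, an RNA-binding protein, had them in WT only. Kat5 had 5 WT peaks and 1 KO peak in its window, and Lin28a 10 and 3. Deficits in KO at least as large as those of Kat5 and Lin28a were found at 11.1% and 2.00% of all genes. Ehmt2, a methyltransferase of lysine 9 of histone H3, had none within 1 kb in either list, with the nearest peaks 3913 bp (WT) and 4272 bp (KO) upstream, although its window held 8 WT and 5 KO peaks. Usp7, counted among the 13, has its calls in both lists from another annotated TSS. Its peaks nearest to the 5′ end of the gene record lay 10962 bp (WT) and 2832 bp (KO) from it.

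Among the 7 other activators and 2-cell targets found, 2 (28.6%) had promoter peaks in both lists (Dux and Tbx3), against 54.9% of all genes. No gene of this group had fewer KO than WT peaks, against 48.7% of all genes. However, 4 had equal numbers, and Zscan4c and Zscan4f among them had no WT peak to lose. The 3 with more KO peaks were Dux, Zfp352 and Dppa3. Zscan4c, Zscan4d, Zscan4f and Zfp352, which are transcribed in 2-cell-like cells, had no promoter peak in either list. Zscan4c and Zscan4f had no peak in their windows at all, and Zscan4d had 1 in each list and Zfp352 1 in WT and 2 in KO. Dppa3, a maternal factor that is also expressed in ESCs, was the only gene of the list with a promoter peak in KO alone, with 6 WT and 10 KO peaks in its window. This call rests on the TSS of a second annotated transcript, since the KO peak nearest to the 5′ end of the gene record was 1256 bp from it, and is lost when only that end is used. Dux lies in an array of near-identical copies, so the place of its peaks (10 WT and 15 KO in the window) is uncertain, as is that of peaks in the Zscan4 cluster. Dux was named after its values were seen, as were Phf21a, Usp7 and the partners given as examples.

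**Figure D5:**
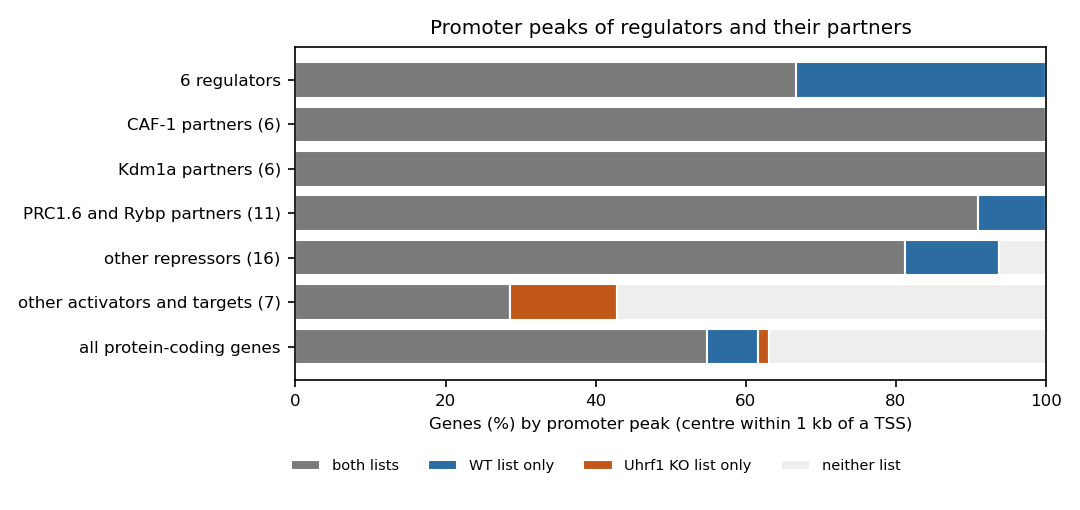
Promoter peaks of the 6 regulators, of the wider list by role and of all protein-coding genes. The horizontal axis is the share of genes in percent with a promoter peak in both lists, in WT only, in Uhrf1 KO only or in neither, and the number of genes stands beside each group. The WT-only part is 33.3% for the 6 regulators, which is 2 genes, and 6.69% for all genes. All 6 regulators had a WT promoter peak, as did 13780 of all genes, and 1496 of these had it in WT only.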

How the data were processed

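ATAC-seq of 1 WT and 1 Uhrf1 KO ESC library was analysed from the authors' deposited peak lists, which hold positions in mm9, names and a score of 1 for every peak, so that no threshold by score could be applied. Per the paper's methods, the authors mapped reads in local mode of Bowtie2 2.1.0, reporting 1 alignment for each read, and used fragments shorter than a mono-nucleosome. The submitters' processing notes also name HOMER 4.9.1, with no role. The peak caller and its settings are not given in the sources used here, and neither is a shift of read ends to the Tn5 cut.

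Positions were compared in Python 3.11.15 (pandas 2.3.3, numpy 2.4.6) and intervals computed with scipy 1.17.1. Sequence copies were counted with numba 0.67.0 and figures drawn with matplotlib 3.10.9. Genes and TSSs were those of GENCODE vM1 and sequence that of NCBIM37, the build of mm9. RefSeq promoters (GRCm38.p6) of 3 of the 6 genes matched mm9 exactly and put the TSS 12 bp downstream at Chaf1a and at the same base at Chaf1b and Kdm1a. Peak numbers have 95% exact Poisson and shares 95% exact (Clopper-Pearson) binomial intervals. The routine for partners was tested on simulated data. The promoter sequence of Dppa4 is not reported here.

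The genes, the wider list and the motifs were chosen with earlier results of these data known. The wider list names genes whose promoter peak is in 1 list or in neither. It counts the others, apart from examples and genes whose calls rest on another TSS. Alternatives were windows of 10 and 50 kb, other rules for sharing and promoters, merged neighbouring peaks, the lower 50% of name numbers, the peak itself for GC content and, added later, the shortened WT list.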

Additional observations from a re-analysis of the deposited data

How the results depend on the processing

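No paired analysis was possible because the comparison has a single library on either side, and no replicate could be left out. Of 72 recomputed values, 56 stayed within the limit set for them (a factor of 1.5 for counts, the 95% binomial interval for shares) and 16 moved. Of the values that answer a comparison, 40 of 46 stayed. With only the 5′ end of the gene record as TSS, 38 genes of the wider list had a WT and 35 a KO promoter peak, against 40 and 38. With the lower 50% of name numbers, the windows held 17 WT and 19 KO peaks, which turns the order of the lists, and Dppa2 and Dppa4 had no WT promoter peak left. With 10 kb on either side they held 17 KO peaks. When at least 50% of both peaks had to be shared, 55.6% of WT and 46.7% of KO peaks lacked a partner. When the lower 50% of name numbers of each list was set against the whole other list, 5.88% of WT and 10.5% of KO peaks did, which again turns the order. The cause of these moves was not tested beyond the construction of each setting, which keeps fewer peaks or asks for more overlap. Counts for single genes were recomputed in this way only with 10 kb and 50 kb windows, and 10 of 24 moved. A threshold by score was not run, because the score does not vary. With no read counts in the lists, the absence of a peak, as at the Dppa4 and Kdm1a promoters in KO, means only that none is listed there and not that the site is closed.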
